A study of Rhodotorula toruloides with 36 samples.

Results

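The genes described here are those of the first steps of sterol synthesis in the oleaginous basidiomycete yeast R. toruloides: ERG9, ERG1, ERG7 and ERG11. They are 4 of the 8493 entries for which RNA-sequencing reads were counted, and they were picked as the named genes of this branch, with earlier results of these data known. On the IFO0880 genome used for the counts, ERG9 is transcript 16719 (scaffold 9, 707140 to 708844, plus strand) and ERG1 is transcript 13857 (scaffold 4, 540890 to 543054, minus strand). ERG7 is transcript 9368 (scaffold 1, 2080742 to 2084001, plus strand) and ERG11 is transcript 12971 (scaffold 3, 271874 to 274192, minus strand). Each listed length equals the genomic span of the transcript, introns included. Each name was joined to its counts by adding 128 to a published protein number. Earlier work picked that offset because it matched a published list of 18 h fold changes, so the 18 h differences from WT below are not independent of that list.

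Cultures in synthetic defined (SD) medium were harvested after 18 h and after 48 h. The engineered strains were compared with their wild-type parent IFO0880 (WT), and all 4 express BIS, an α-bisabolene synthase from the grand fir Abies grandis. Strain GB2 carries P_GAPDH-BIS cassettes and further BIS cassettes driven by the ANT promoter. BIS3, BIS14 and BIS18 carry P_GAPDH-BIS alone, with most copies in BIS3 and fewest in BIS18, and GB2 was built from BIS3. Each is a single strain, so cassette dose and the integration sites of that strain cannot be told apart. Each engineered strain gave 3 libraries per time. WT gave 6 libraries at 18 h and 5 used at 48 h, because WT replicate 2 at 48 h was left out. The paper averaged 3 replicates and does not say which WT libraries these were. The labels give 2% glucose and the paper's methods a lower concentration.

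Farnesyl diphosphate (FPP) is the branch point of this part of metabolism. BIS converts FPP to α-bisabolene, and squalene synthase, the ERG9 product, joins FPP molecules into squalene, the first committed intermediate of sterols. Squalene monooxygenase (ERG1) makes the epoxide of squalene, lanosterol synthase (ERG7) cyclizes it to lanosterol, and lanosterol 14-alpha-demethylase (ERG11), a cytochrome P450 and the target of azole antifungals, removes a methyl group on the way to ergosterol. Ergosterol is the main sterol of most fungal membranes. In the budding yeast Saccharomyces cerevisiae, ERG genes are known to respond to sterol depletion, and no sterol was measured with these libraries.

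Total counts were 1134992 to 2029181 per library at 18 h and 1092869 to 3102440 at 48 h among the 35 libraries used. Counts of BIS followed the strain labels. At 18 h they were 29482 to 38577 in GB2, 14960 to 22987 in BIS3, 8400 to 11609 in BIS14 and 1301 to 1652 in BIS18, against 3 to 9 in WT. WT replicate 2 at 48 h held 657951 counts, and its ERG11 and ERG9 values stood apart. It had 32.1 FPKM of ERG11 and 29.4 FPKM of ERG9, while the other WT libraries at 48 h had 101 to 115 and 48.1 to 57.9 FPKM.

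FPKM (reads counted per kilobase of listed length, scaled to a fixed library total) gives the level of a gene. Fold changes come from edgeR's quasi-likelihood test after TMM normalization, and a gene was called when its Benjamini-Hochberg adjusted p over all transcripts tested was under 0.05. The scales differ. Scaling to library totals alone moved the median log2 fold change of all transcripts to -0.37 for GB2 against WT at 18 h, and to -0.26 at 48 h, where TMM gave -0.05 and -0.03. The calls at 18 h were then 1051 higher and 3562 lower in GB2, where TMM gave 1943 higher and 2063 lower. Differences between groups are therefore larger after TMM than the FPKM values show wherever GB2, BIS3 or BIS14 was higher than WT at 18 h. The labels do not say that replicates were separate cultures, so p-values measure the spread between these libraries. Nor do they say whether same-numbered libraries of the 2 times came from the same culture. Comparisons between times treat all libraries as independent.

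At 18 h all 4 sterol genes were higher in GB2 than in WT. ERG7 had the largest fold change of the 4 (5.22-fold), followed by ERG1 (2.79-fold), ERG11 (2.52-fold) and ERG9 (1.70-fold). Among all 7375 transcripts tested, 26.3% were called higher in this comparison. The median log2 fold change was 1.41 over the 4 genes and -0.05 over all transcripts tested. In BIS3 all 4 genes were also called higher (17.3% of all transcripts), in BIS14 3 of 4 (10.5%) and in BIS18 none (0.475%), where 1 gene had an unadjusted p under 0.05 and DESeq2 called 0. The corresponding medians over the 4 genes were 1.08 in BIS3, 0.65 in BIS14 and 0.10 in BIS18, with medians of -0.03, -0.01 and 0.00 over all transcripts.

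ERG9, at the branch from FPP, showed the smallest differences at 18 h. Its levels were 59.4, 57.1 and 66.7 FPKM in the 3 GB2 libraries and 48.7, 53.4 and 46.3 FPKM in BIS3. BIS14 had 36.9, 49.4 and 51.1 FPKM, BIS18 had 46.7, 42.6 and 45.8 FPKM, and WT had a lowest value of 41.3, a median of 43.3 and a highest of 50.0 FPKM. In FPKM GB2 was the only strain with all its libraries above every WT library. With TMM scaling the lowest BIS3 value (54.4) also lay above the highest WT value (49.8). On the TMM scale the log2 fold change was 0.77 ± 0.10 (SE, adjusted p = 3.9e-06) in GB2 and 0.39 ± 0.11 (adjusted p = 0.011) in BIS3. The GB2 value was 0.44 when scaled to library totals alone and was still called. The BIS3 call was lost under that scaling (0.14, adjusted p = 0.33), without BIS3 replicate 2 (0.27, adjusted p = 0.11) and with WT replicates 1 to 3 only (0.37, adjusted p = 0.055). In BIS14 the log2 fold change was 0.13 (adjusted p = 0.43) and in BIS18 it was -0.03 (adjusted p = 0.96).

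ERG1, which makes squalene epoxide, was higher in the 3 strains with most BIS. It had 133, 139 and 138 FPKM in GB2, 128, 122 and 112 FPKM in BIS3, and 125, 89.4 and 87.0 FPKM in BIS14. BIS18 had 68.6, 70.7 and 69.5 FPKM, and WT had a lowest value of 52.1, a median of 63.9 and a highest of 68.0 FPKM. In FPKM no engineered strain overlapped WT, though BIS18 lay only just above its highest library. With TMM scaling BIS18 (65.7 to 68.9) overlapped WT (51.9 to 68.0). The log2 fold change against WT was 1.48 ± 0.13 (adjusted p = 9.9e-09) in GB2, 1.22 ± 0.13 (adjusted p = 1.4e-06) in BIS3 and 0.84 ± 0.13 (adjusted p = 0.00025) in BIS14. In BIS18 it was 0.15 ± 0.14 (adjusted p = 0.82).

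ERG7, which forms lanosterol, had the widest range between strains. Its levels were 138, 138 and 139.6 FPKM in GB2, 112, 211 and 117 FPKM in BIS3, and 56.9, 86.0 and 103 FPKM in BIS14. BIS18 had 52.2, 48.0 and 51.0 FPKM, and WT had a lowest value of 28.7, a median of 32.6 and a highest of 39.1 FPKM. Every engineered library lay above every WT library, and BIS3 replicate 2 stood far above the other BIS3 libraries. The log2 fold change against WT was 2.38 ± 0.18 (adjusted p = 1.8e-09) in GB2, 2.41 ± 0.18 (adjusted p = 9.4e-09) in BIS3 and 1.40 ± 0.19 (adjusted p = 4.2e-05) in BIS14. Without replicate 2 the BIS3 value was 1.98 (adjusted p = 3.0e-09). In BIS18 the value was 0.57 ± 0.19, which was not called (adjusted p = 0.42, unadjusted p = 0.0070). It was called in a fit of BIS18 and WT libraries alone (0.58, adjusted p = 0.0062).

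ERG11, the demethylase, followed the same order of strains by mean FPKM as ERG9. It had 128, 114 and 142 FPKM in GB2, 83.0, 139 and 83.8 FPKM in BIS3, and 70.2, 79.1 and 93.5 FPKM in BIS14. BIS18 had 64.7, 67.5 and 69.2 FPKM, and WT had a lowest value of 52.5, a median of 63.8 and a highest of 74.5 FPKM. In FPKM GB2 and BIS3 lay above WT, BIS14 overlapped its upper end and BIS18 lay within it. With TMM scaling the lowest BIS14 value (81.0) also lay above the highest WT value (71.2). The log2 fold change was 1.33 ± 0.15 (adjusted p = 2.8e-07) in GB2, 0.95 ± 0.15 (adjusted p = 0.00013) in BIS3 and 0.46 ± 0.16 (adjusted p = 0.049) in BIS14. The BIS3 value was 0.58 without replicate 2 (adjusted p = 0.0013). The BIS14 call was lost when any BIS14 library or any WT library other than replicate 4 was left out (adjusted p 0.058 to 0.16), with WT replicates 1 to 3 only (0.54, adjusted p = 0.11) or 4 to 6 only (0.38, adjusted p = 0.19), and on library totals (0.35, adjusted p = 0.099). In BIS18 the log2 fold change was 0.05 (adjusted p = 0.95).

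**Figure D1:**
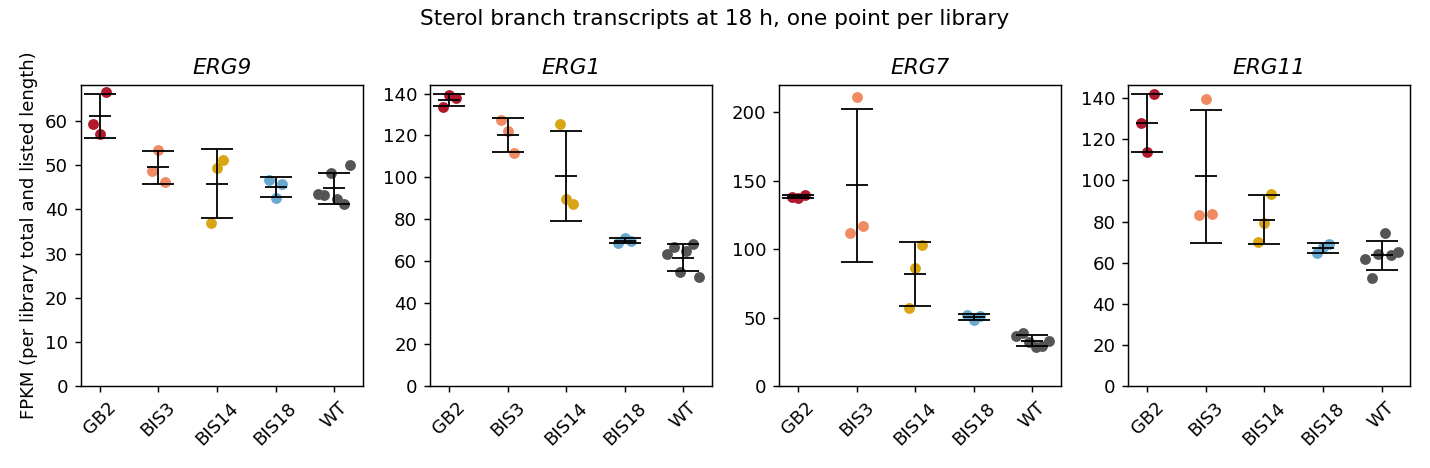
FPKM of ERG9, ERG1, ERG7 and ERG11 at 18 h, with 1 point per library, strains along the x axis and bars for the mean and SD (n = 3, WT n = 6). ERG7 in WT lies at 28.7 to 39.1 FPKM, below every engineered library, and BIS3 replicate 2 is the high point of ERG7 (211 FPKM) and ERG11 (139 FPKM).

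Between neighbouring strains fewer of the 4 genes were called. In order of mean FPKM at 18 h, ERG9, ERG1 and ERG11 each ran GB2, BIS3, BIS14, BIS18 and WT, and ERG7 ran BIS3, GB2, BIS14, BIS18 and WT. In FPKM, neighbours in these orders without overlap were GB2 and BIS3 for ERG9 and ERG1, and GB2 and BIS14 for ERG7. So were BIS14 and BIS18 for ERG1, ERG7 and ERG11, and BIS18 and WT for ERG1 and ERG7. With TMM scaling BIS18 overlapped WT for ERG1, and BIS3 and BIS14 did not overlap for ERG9. For ERG9 the TMM mean of WT (44.3) then stood above that of BIS18 (43.4). The share of all transcripts separated in this way was not computed. Between GB2 and BIS3, ERG9 was called higher in GB2 (log2 fold change 0.38 ± 0.12, adjusted p = 0.027), where 29.1% of all transcripts were called in either direction. ERG7 was not called between GB2 and BIS3 (-0.03 ± 0.21, adjusted p = 0.93), but without BIS3 replicate 2 it was higher in GB2 (0.42, adjusted p = 0.045), as was ERG11 (0.76, adjusted p = 0.00017). The ERG9 call was lost when BIS3 replicate 1 (adjusted p = 0.073), BIS3 replicate 3 (adjusted p = 0.083) or GB2 replicate 3 (adjusted p = 0.10) was left out, and on library totals (0.30, adjusted p = 0.086). Between BIS3 and BIS14, ERG7 was called higher in BIS3 (1.01 ± 0.21, adjusted p = 0.011; 2.89% of all transcripts called). This value was 0.57 without BIS3 replicate 2 (adjusted p = 0.057), and ERG1 was also called higher in BIS3 without BIS14 replicate 1 (0.64, adjusted p = 0.0017). Between BIS14 and BIS18, ERG1 (0.69 ± 0.16, adjusted p = 0.0086) and ERG7 (0.83 ± 0.22, adjusted p = 0.019) were called higher in BIS14, where 12.1% of all transcripts were called. The ERG1 step was 0.42 without BIS14 replicate 1. The ERG7 step was not called without BIS18 replicate 1 (adjusted p = 0.055), BIS18 replicate 2 (adjusted p = 0.075) or BIS14 replicate 3 (adjusted p = 0.063). When a fit held just the compared strains, none of these 18 h steps was called, though the values hardly moved: ERG9 had 0.38 (adjusted p = 0.058) between GB2 and BIS3, ERG7 0.99 (adjusted p = 0.47) between BIS3 and BIS14, and between BIS14 and BIS18 ERG1 had 0.69 (adjusted p = 0.11) and ERG7 0.83 (adjusted p = 0.054). Such a fit called 1988 of 6912 transcripts between GB2 and BIS3, 0 of 6932 between BIS3 and BIS14 and 150 of 7178 between BIS14 and BIS18, so for the last 2 steps the loss extended over all transcripts.

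At 48 h ERG1 and ERG7 were called higher in GB2 (22.2% of all transcripts were called higher), BIS3 (13.5%) and BIS14 (19.5%), while ERG11 was called in no strain. ERG9 was called lower in BIS14, where 16.3% of all transcripts were called lower. In BIS18 none of the 4 was called (11.1% called higher), where 1 gene had an unadjusted p under 0.05 and DESeq2 called 0. Median log2 fold changes over the 4 genes were 0.34 in GB2, 0.24 in BIS3, 0.21 in BIS14 and 0.02 in BIS18, where all transcripts had medians of -0.03, 0.00, -0.03 and -0.03.

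ERG7 at 48 h had 36.6, 26.2 and 29.0 FPKM in GB2 and 29.0, 30.8 and 29.6 FPKM in BIS3. BIS14 had 26.1, 23.3 and 19.9 FPKM, BIS18 had 20.2, 19.9 and 20.4 FPKM, and the WT libraries had 20.1, 19.6, 19.0, 20.6 and 18.9 FPKM. In FPKM GB2 and BIS3 lay above every WT library, and BIS14 and BIS18 overlapped WT. With TMM scaling the lowest values of BIS14 (19.3) and BIS18 (18.7) also lay above the highest WT value (17.4). The log2 fold change was 0.87 ± 0.10 (adjusted p = 1.1e-06) in GB2, 0.68 ± 0.11 (adjusted p = 9.2e-05) in BIS3 and 0.47 ± 0.11 (adjusted p = 0.0027) in BIS14. The BIS14 call was lost when scaled to library totals alone (0.25, adjusted p = 0.078). BIS18 had 0.18 ± 0.11 (adjusted p = 0.27).

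ERG1 at 48 h had 85.5, 85.9 and 96.3 FPKM in GB2, 73.9, 96.7 and 86.5 FPKM in BIS3, and 84.0, 103 and 77.8 FPKM in BIS14. BIS18 had 74.0, 69.4 and 70.0 FPKM and WT had 67.6, 65.0, 62.7, 66.0 and 70.7 FPKM. In FPKM the GB2, BIS3 and BIS14 libraries all lay above WT, and BIS18 overlapped it. With TMM scaling the lowest BIS18 value (65.3) also lay above the highest WT value (60.2). The log2 fold change was 0.65 ± 0.11 (adjusted p = 7.2e-05) in GB2, 0.44 ± 0.11 (adjusted p = 0.0062) in BIS3 and 0.65 ± 0.11 (adjusted p = 0.00015) in BIS14. On library totals the GB2 value was 0.42 and the BIS14 value 0.41, both still called. The BIS3 call was lost without BIS3 replicate 2 (0.36, adjusted p = 0.050), with WT replicate 2 put back (0.41, adjusted p = 0.078) and with WT replicates 1 to 3 only (0.44, adjusted p = 0.076). BIS18 had 0.23 ± 0.11 (adjusted p = 0.15).

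ERG9 at 48 h had 47.9, 40.0 and 46.6 FPKM in GB2, 47.6, 57.1 and 48.1 FPKM in BIS3 and 39.6, 26.5 and 37.0 FPKM in BIS14. BIS18 had 41.8, 38.9 and 39.0 FPKM and WT had 48.1, 50.4, 51.2, 57.9 and 50.7 FPKM. The GB2, BIS14 and BIS18 libraries lay below WT on this scale. After TMM normalization, which brings the means to 44.7 in GB2 and 44.0 in WT, the log2 fold change in GB2 was 0.02 ± 0.10 (adjusted p = 0.88). BIS14 had -0.39 ± 0.11 (adjusted p = 0.0097), with replicate 2 lowest. That call was lost without BIS14 replicate 2 (-0.28, adjusted p = 0.11), with WT replicate 2 put back (-0.32, adjusted p = 0.14) and with WT replicates 1 to 3 only (-0.32, adjusted p = 0.11), and the value was -0.60 on library totals. BIS3 had 0.05 (adjusted p = 0.83) and BIS18 -0.24 (adjusted p = 0.099), which on library totals was -0.38 and called (adjusted p = 0.020).

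ERG11 at 48 h had 79.4, 93.4 and 82.9 FPKM in GB2, 109.9, 107 and 95.4 FPKM in BIS3 and 90.0, 92.4 and 83.3 FPKM in BIS14. BIS18 had 88.3, 86.0 and 95.5 FPKM and WT had 101, 105, 115, 111 and 109 FPKM. GB2, BIS14 and BIS18 lay below every WT library in FPKM, but whether this was called depended on the scaling. With TMM the means were 85.0 FPKM in GB2 and 92.1 FPKM in WT, and the log2 fold change was -0.12 ± 0.09 (adjusted p = 0.30). With library totals alone it was -0.35 (adjusted p = 0.0019) in GB2, -0.29 (adjusted p = 0.011) in BIS14 and -0.27 (adjusted p = 0.025) in BIS18. The TMM values were 0.02 (adjusted p = 0.89) in BIS3, -0.06 (adjusted p = 0.65) in BIS14 and -0.13 (adjusted p = 0.34) in BIS18. Putting WT replicate 2 back turned the sign in GB2 (0.03), BIS14 (0.09) and BIS18 (0.02), with no call.

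**Figure D2:**
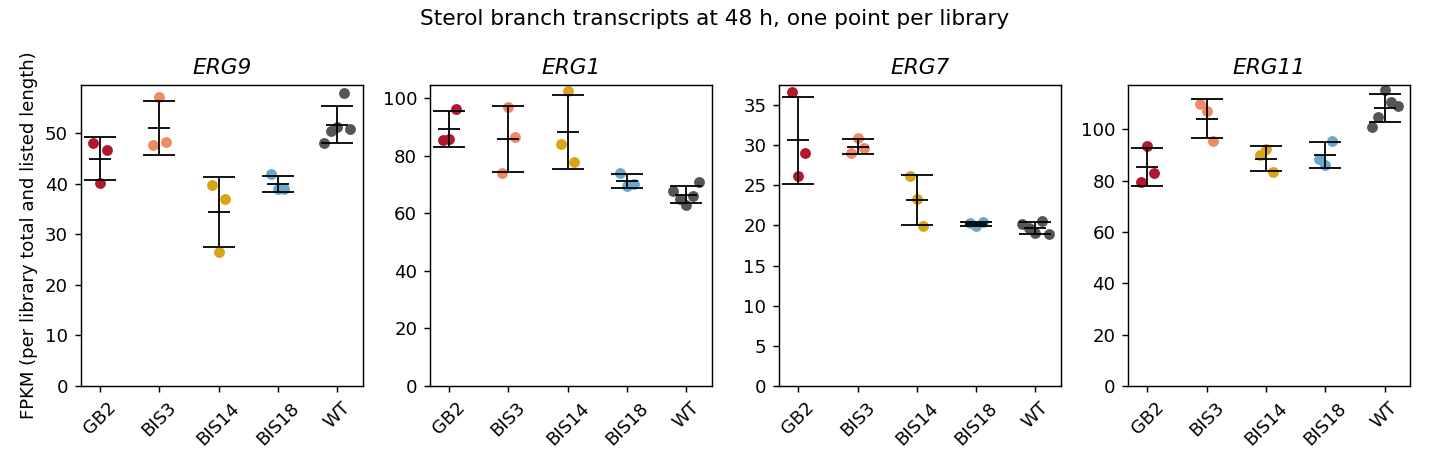
FPKM of the 4 genes at 48 h, with 1 point per library, strains along the x axis and bars for the mean and SD (n = 3, WT n = 5 with replicate 2 left out). ERG7 is highest in GB2 and BIS3 (26.2 to 36.6 FPKM), and ERG11 lies at 101 to 115 FPKM in WT.

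Steps between neighbouring strains at 48 h were few. No sterol gene was called between GB2 and BIS3 (24.1% of all transcripts called in either direction), with unadjusted p of 0.11 to 0.91 for the 4 genes and no call in DESeq2, but on library totals ERG11 was called lower in GB2 (-0.29, adjusted p = 0.027). Between BIS3 and BIS14 ERG9 was called higher in BIS3 (0.43 ± 0.12, adjusted p = 0.033; 7.34% called), and between BIS14 and BIS18 ERG1 was called higher in BIS14 (0.42 ± 0.13, adjusted p = 0.042; 9.79% called). Both calls were lost without BIS14 replicate 2, with values of 0.32 (adjusted p = 0.22) for ERG9 and 0.21 (adjusted p = 0.30) for ERG1. The ERG9 call was also lost when any 1 of the BIS3 libraries was left out (adjusted p 0.059 to 0.13), and the ERG1 call when any 1 of the BIS18 libraries was (adjusted p 0.079 to 0.12). By mean FPKM at 48 h, ERG7 ran GB2, BIS3, BIS14, BIS18 and WT and ERG1 ran GB2, BIS14, BIS3, BIS18 and WT in falling order. In rising order ERG9 ran BIS14, BIS18, GB2, BIS3 and WT, and ERG11 ran GB2, BIS14, BIS18, BIS3 and WT. All neighbours in these FPKM orders overlapped except BIS3 and BIS14 for ERG7. With TMM scaling the mean of BIS3 was highest for ERG9 (46.1, WT 44.0) and ERG11 (94.3, WT 92.1). BIS18 then lay above WT for ERG1 and ERG7 and below it for ERG9, and BIS14 lay above BIS18 for ERG7, without overlap. The share of all transcripts separated in this way was not computed.

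**Figure D3:**
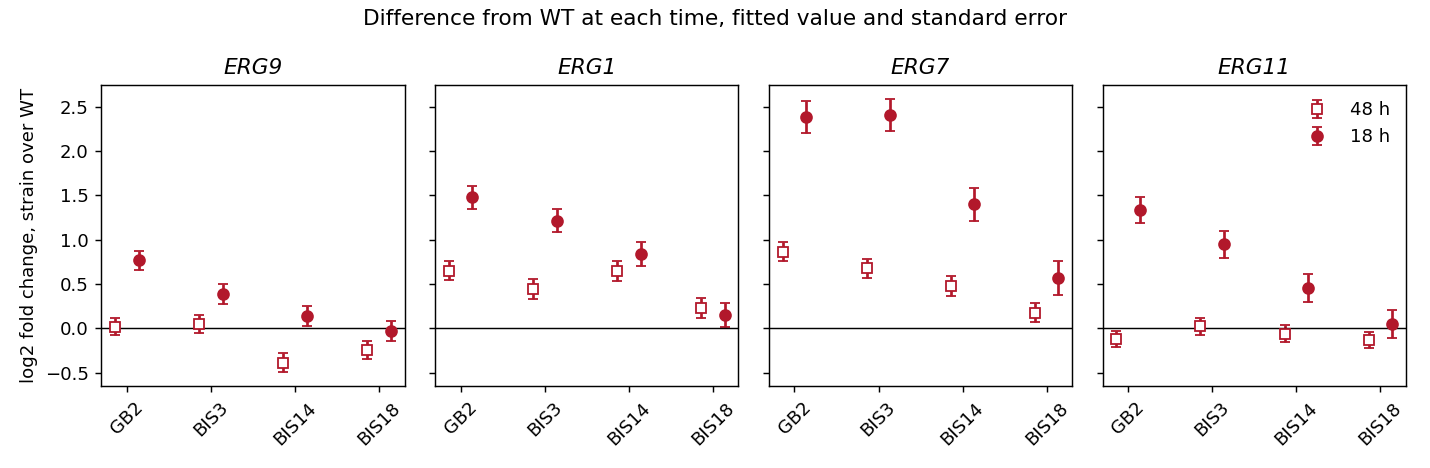
Fitted log2 fold change of each engineered strain over WT for the 4 genes (y axis, TMM scale), with open squares for 48 h, filled circles for 18 h and bars for the standard error. ERG7 in GB2 lies at 0.87 at 48 h and 2.38 at 18 h, and ERG11 in GB2 at -0.12 and 1.33.

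In GB2 all 4 genes were lower at 48 h than at 18 h, where 64.0% of all transcripts were called in either direction. The log2 fold change was -2.54 ± 0.18 (adjusted p = 4.6e-14) for ERG7, -0.98 ± 0.14 (adjusted p = 2.8e-07) for ERG1, -0.95 ± 0.15 (adjusted p = 9.3e-07) for ERG11 and -0.81 ± 0.11 (adjusted p = 1.9e-07) for ERG9. On library totals ERG1 had -0.62, ERG11 -0.59 and ERG9 -0.44, all still called. In BIS3 all 4 were called lower at 48 h (61.6% of all transcripts called), with -2.72 ± 0.19 for ERG7, -0.89 ± 0.15 for ERG1, -0.39 ± 0.15 (adjusted p = 0.022) for ERG11 and -0.37 ± 0.12 (adjusted p = 0.0083) for ERG9. The last 2 depended on the libraries and the scaling. Without BIS3 replicate 2 at 18 h ERG11 had -0.02 (adjusted p = 0.88) and ERG9 -0.25 (adjusted p = 0.11), and on library totals they turned to 0.02 and 0.03. Without BIS3 replicate 3 at 48 h ERG11 was not called either (-0.34, adjusted p = 0.087), and with at least 10 counts in every library neither was (ERG11 -0.27, adjusted p = 0.12; ERG9 -0.24, adjusted p = 0.079). ERG1 in BIS3 had -0.49 on library totals and was still called.

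In BIS14 ERG7 (-1.90 ± 0.19, adjusted p = 3.4e-10) and ERG9 (-0.53 ± 0.13, adjusted p = 0.00076) were lower at 48 h (54.0% of all transcripts called). ERG1 had -0.30 (adjusted p = 0.083) and ERG11 0.04 (adjusted p = 0.86). ERG1 was called lower when BIS14 replicate 2 (-0.41) or 3 (-0.44) at 18 h, or replicate 2 at 48 h (-0.50), was left out. In BIS18, as in WT, ERG7 was lower at 48 h (-1.35 ± 0.19, adjusted p = 2.5e-07) and ERG11 higher (0.39 ± 0.15, adjusted p = 0.027), among 56.8% of all transcripts called. The ERG11 call was lost without BIS18 replicate 1 (adjusted p = 0.072) or 2 (adjusted p = 0.054) at 18 h, or without replicate 3 at 48 h (adjusted p = 0.089), and with WT replicate 2 put back (0.39, adjusted p = 0.17).

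In WT 1 of the 4 genes was called lower and 1 higher at 48 h, where 34.9% and 37.1% of all transcripts were. ERG7 was lower at 48 h than at 18 h in WT (log2 fold change -0.97 ± 0.15, adjusted p = 4.7e-07), with 18.9 to 20.6 FPKM at 48 h against 28.7 to 39.1 FPKM at 18 h. ERG11 was higher at 48 h (0.55 ± 0.11, adjusted p = 4.3e-05), with 101 to 115 FPKM against 52.5 to 74.5 FPKM. The WT libraries of the 2 times did not overlap for either gene. ERG9 (-0.01, adjusted p = 0.92) and ERG1 (-0.10, adjusted p = 0.43) were not called. In WT 72.0% of all transcripts were called between the times. ERG7 was thus the only one of the 4 called lower at 48 h in all 5 strains.

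**Figure D4:**
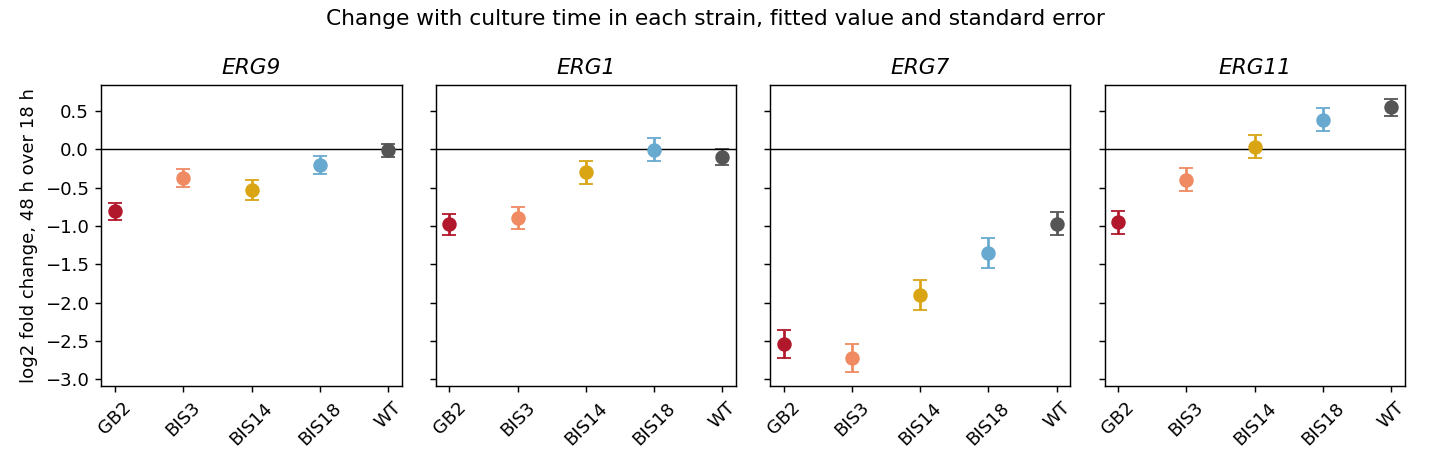
Fitted log2 fold change of 48 h over 18 h for each gene (y axis, TMM scale) in each strain, with bars for the standard error. ERG7 is below 0 in all 5 strains (-2.72 in BIS3, -0.97 in WT), and ERG11 lies at -0.95 in GB2 and 0.55 in WT.

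The difference from WT itself changed between the times. For GB2 the change from 18 h to 48 h was called for all 4 genes (40.0% of all transcripts called), at -1.57 ± 0.23 (adjusted p = 1.6e-06) for ERG7, -1.50 ± 0.18 (adjusted p = 6.5e-08) for ERG11, -0.88 ± 0.18 (adjusted p = 0.00018) for ERG1 and -0.80 ± 0.14 (adjusted p = 3.5e-05) for ERG9. For BIS3 it was called for ERG7 (-1.75 ± 0.23), ERG11 (-0.95 ± 0.19) and ERG1 (-0.79 ± 0.18), with 17.6% of all transcripts called, and ERG9 had -0.36 (adjusted p = 0.088). The ERG11 value was -0.57 without BIS3 replicate 2 at 18 h (adjusted p = 0.0052), and it was not called with WT replicate 2 put back (-0.80, adjusted p = 0.065). For BIS14 it was called for ERG7 (-0.93 ± 0.24, adjusted p = 0.0077) and ERG9 (-0.52 ± 0.16, adjusted p = 0.021), among 15.5% of all transcripts. The ERG9 term was lost without BIS14 replicate 2 (adjusted p = 0.054) or 3 (adjusted p = 0.064) at 18 h or replicate 2 at 48 h (adjusted p = 0.11), and with WT replicates 1 to 3 only both terms were lost (ERG7 -0.80, adjusted p = 0.11; ERG9 -0.41, adjusted p = 0.18). With BIS14 replicate 2 at 48 h or WT replicate 4 at 18 h left out, the ERG11 term was called (-0.61, adjusted p = 0.048, and -0.55, adjusted p = 0.047), as it was on library totals (-0.63, adjusted p = 0.012). None was called for BIS18 (3.41% of all transcripts), with unadjusted p of 0.12 to 0.61 and no call in DESeq2. Comparisons with WT share the WT libraries, so the 4 strains' values are not independent of each other.

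Ratios of genes within a library do not depend on how libraries are scaled. The log2 ratio of ERG7 to ERG9, last against first in forming lanosterol from FPP, averaged 1.18 ± 0.10 (SD) in GB2, 1.51 ± 0.42 in BIS3, 0.81 ± 0.19 in BIS14 and 0.16 ± 0.01 in BIS18 at 18 h, against -0.44 ± 0.19 in WT. Every engineered library was above every WT library in this ratio, which ran up to -0.15 in WT. At 48 h it averaged -0.56 ± 0.15 in GB2, -0.77 ± 0.11 in BIS3, -0.56 ± 0.36 in BIS14 and -0.98 ± 0.06 in BIS18, against -1.39 ± 0.09 in WT. The engineered strains thus again all lay above WT, which ran up to -1.26. The log2 ratio of ERG11 to ERG1 overlapped between WT and every engineered strain at 18 h, with means of -0.10 in GB2, -0.28 in BIS3, -0.30 in BIS14 and -0.05 in BIS18, against 0.05 in WT. At 48 h it was -0.07 ± 0.17 in GB2, 0.29 ± 0.25 in BIS3, 0.02 ± 0.14 in BIS14 and 0.34 ± 0.10 in BIS18, against 0.70 ± 0.12 in WT. All engineered libraries lay below the lowest WT ratio of 0.58 at that time, with the highest BIS3 library at 0.57. Among the pairs of these genes, only ERG7 to ERG9 separated every engineered library from WT at both times. At 18 h every other pair overlapped WT in some engineered strain. For ERG1 to ERG9, BIS18 began at 0.55 and WT ran up to 0.72. For ERG7 to ERG11, BIS18 began at -0.49 and WT ran up to -0.43. The share of pairs among all transcripts that separate in this way was not computed. These ratios are descriptions, and no test was made on them.

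The upstream pathway that makes FPP from acetyl-CoA was measured in the same libraries. Of 9 further genes of the mevalonate pathway and its prenyl diphosphate steps (ERG10, ERG13, HMGR, MK, PMK, MVD, IDI, ERG20 and GGPPS), 7 were called higher and 1 lower in GB2 than in WT at 18 h, where 26.3% of all transcripts were called higher and 28.0% lower. ERG13, HMG-CoA synthase, had a log2 fold change of 3.41 ± 0.20, ERG20, which makes FPP, 2.20 ± 0.12, and ERG10, acetoacetyl-CoA thiolase, 1.92 ± 0.11. HMGR, HMG-CoA reductase, had 1.23 ± 0.11, and MK, mevalonate kinase, was lower (-0.82 ± 0.17). Of the same 9 genes, 6 were called higher in BIS3 at 18 h (17.3% of all transcripts), 7 in BIS14 (10.5%) and none in BIS18 (0.475%), and none was called lower in these strains. The 9 genes had a median log2 fold change of 0.94 in GB2, against 1.41 for the sterol genes. At 48 h 5 of 9 were called higher in GB2 (22.2% of all transcripts) and 4 in BIS3 (13.5%). In BIS14 3 were called higher (19.5%) and 2 lower (16.3%), and none was called in BIS18 (11.1% called higher). For BIS18, 0 of the 9 at 18 h and 2 at 48 h had an unadjusted p under 0.05, and DESeq2 called 0 at both times. At 48 h against 18 h, 8 of 9 were called lower in GB2, where 32.0% of all transcripts were called lower, and 7 in WT, where 34.9% were. In WT GGPPS, which makes geranylgeranyl diphosphate, was called higher (0.43 ± 0.10), as were 37.1% of all transcripts.

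The transcripts next to ERG7 and ERG1 limit how their counts can be read. The library kit does not mark strand, and how reads in shared stretches were counted is not given in the sources used here. ERG7 shares its first 371 bp with transcript 9367 on the same strand, so reads there cannot be assigned to either from these counts. Transcript 9367 had log2 fold changes close to those of ERG7 at 18 h, at 2.30 ± 0.23 in GB2, 2.39 ± 0.23 in BIS3 and 1.26 ± 0.27 in BIS14. It held 58.2 to 72.2 FPKM in GB2, against 10.8 to 23.3 FPKM in WT. The next transcript, 9369, begins 12 bp after ERG7 and was also higher in GB2 (0.95 ± 0.12, adjusted p = 1.3e-06). On the other side, transcript 9366 lies on the opposite strand and overlaps the start of 9367. Its log2 fold change in GB2 at 18 h was 1.18, and that of transcript 9365 beyond it was -0.78.

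At its start ERG1 lies head to head with transcript 13858, 35 bp apart on the opposite strand, which was not tested at 18 h. At its end it lies tail to tail with transcript 13856, 19 bp apart on the opposite strand. That neighbour went the other way at 18 h, with 5, 2 and 2 counts in GB2 and 12, 2 and 9 counts in BIS3, against 26 to 60 counts in WT. Its log2 fold change was -3.44 ± 0.41 (adjusted p = 7.8e-07) in GB2 and -1.78 ± 0.34 (adjusted p = 0.00062) in BIS3. At such low counts the fitted value and its SE depend on the prior count. ERG9 and ERG11 do not overlap their listed neighbours, which lie 326 and 465 bp from ERG9 and 642 and 263 bp from ERG11. The 40 transcripts nearest to each sterol gene, 20 on each side, had median log2 fold changes between -0.32 (around ERG11) and -0.05 (around ERG7) in GB2 at 18 h, where the sterol genes had 0.77 to 2.38. These medians do not describe the closest transcripts. Of the 4 others within 5 kb of the start of ERG11 (1.33), transcript 12973 had a log2 fold change of 1.76, transcript 12974 had 1.29, transcript 12970 had 0.87 and transcript 12972, the nearest, had 0.08.

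**Figure D5:**
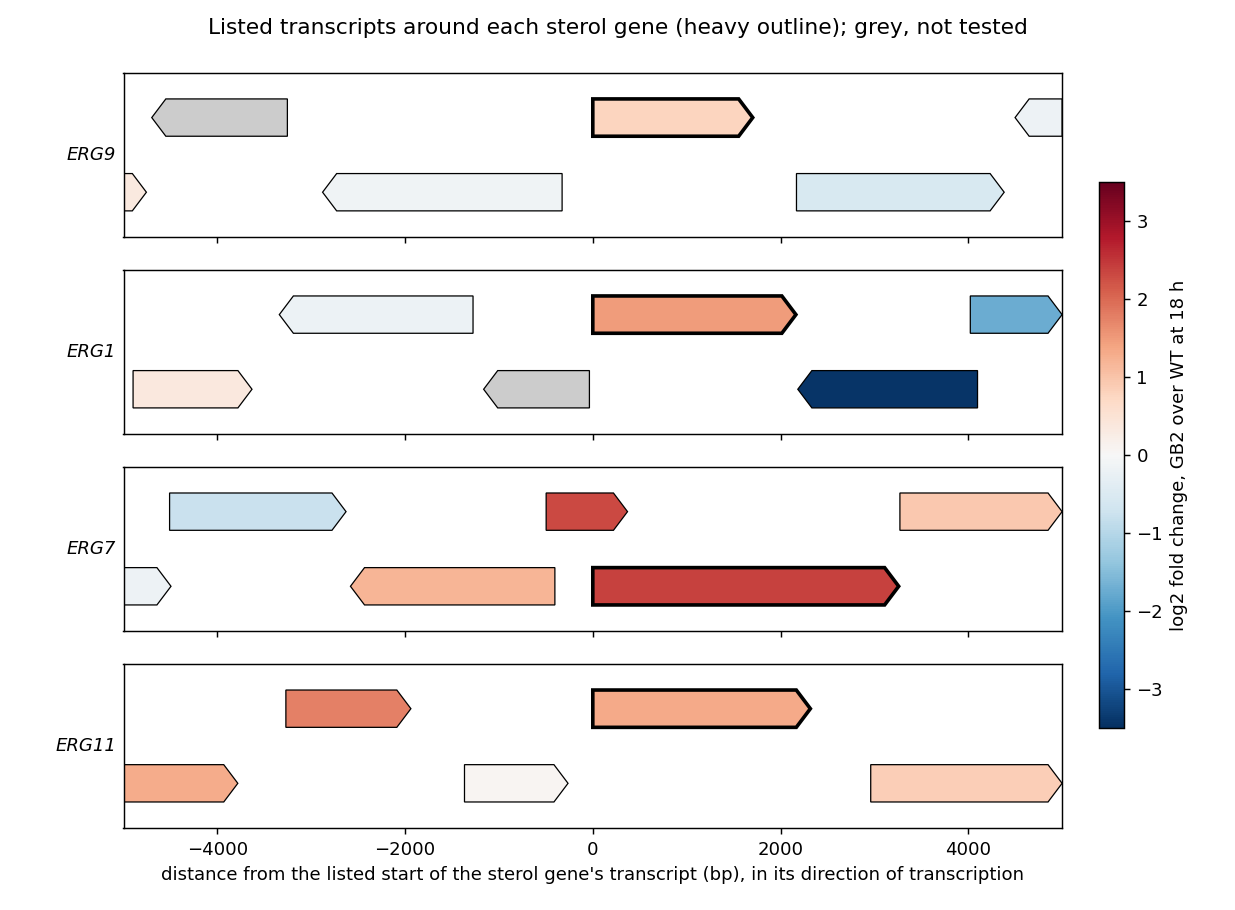
Listed transcripts within 5 kb of the start of each sterol gene (x axis, bp from its start, in its direction of transcription), coloured by log2 fold change of GB2 over WT at 18 h, with grey for transcripts not tested and rows staggered for legibility. ERG7 (2.38) overlaps a transcript with 2.30, and ERG1 (1.48) faces one with -3.44.

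Over the 10 strain and time means, the sterol genes were not each other's nearest matches. Likeness was the Pearson correlation of mean log2 TMM CPM among 7172 other transcripts, given as a description because the 10 means share strains, times and processing. The 3 most similar to ERG7 were transcript 9367 (r = 0.994), which overlaps it, transcript 13562 (r = 0.991) and ERG20 (r = 0.989). The closest match had r = 0.972 for ERG1, 0.966 for ERG9 and 0.981 for ERG11, and each was a transcript that no table used here names. Between the sterol genes themselves r ran from 0.602 for ERG7 with ERG11 to 0.880 for ERG7 with ERG1. ERG13 ranked 26 for ERG9, 17 for ERG1, 63 for ERG7 and 162 for ERG11 among the 7172. Other upstream genes were less alike, and MK ranked 2797, 2661, 1975 and 4347 for the same genes (r = -0.13 with ERG11).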

How the data were processed

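RNA was sequenced from 36 libraries, and per the paper's methods the authors trimmed reads with BBTools, mapped them with HISAT2 to the IFO0880 genome plus the BIS coding sequence, and counted them with featureCounts. Versions, strand setting and treatment of shared reads are not given in the sources used here. The deposited values are raw counts per transcript without normalization, and 0 columns were left unused. Groups follow the sample labels.

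Tests were made with edgeR 4.0.16 in R 4.3.3 (TMM, filterByExpr, quasi-likelihood test, p-values adjusted by Benjamini-Hochberg over every transcript in the fit). A first fit held the 18 libraries at 18 h, a second the 17 at 48 h, and another all 35 for comparisons of times and for the change of a difference between times. The test gives no standard error. Those shown for fold changes are approximate, each the absolute log2 fold change divided by the square root of the test's F statistic. FPKM came from counts, library totals and listed lengths, in Python 3.11.15 with numpy 2.4.6, pandas 2.3.3 and matplotlib 3.10.9. The scripts were tested on simulated data with a fixed dispersion and as many rises as falls, so that check does not cover the choice of scaling. Counts here limit precision to the spread between libraries.

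The genes named are the 4 sterol genes, 9 further pathway genes, the nearest listed transcript on each side, and for each sterol gene the 3 transcripts most alike over the 10 group means, among those with a mean of at least 10 CPM (log2 values with a prior count of 2). Of these, transcripts with no gene name most alike to ERG9, ERG1 and ERG11 are given by their correlation only. Members and lists were chosen with earlier results of these data known. A table of gene names from another source matched 0 identifiers. Alternatives were RLE normalization, no count filter, at least 10 counts in every library, DESeq2 1.42.0, WT replicate 2 at 48 h put back, either WT replicates 1 to 3 or WT replicates 4 to 6, the compared groups alone, all 35 libraries in one fit, a replicate block, the cassette entries (BIS, Nat, Hyg) left out, and each library left out in turn. Library totals without normalization factors were added after seeing the data. For levels, TMM effective library sizes and WT replicate 2 put back were used.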

Additional observations from a re-analysis of the deposited data

Results flagged for a closer look

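In WT at 48 h, replicate 2 lay far from the other 5 libraries for 2 of the 4 genes, with 29.4 FPKM of ERG9 and 32.1 FPKM of ERG11. It was left out of every test except the alternative that put it back. Chance would flag about 1 in 20 groups.

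The difference from WT was called as changed between 18 h and 48 h for 9 pairs of gene and strain, all toward a smaller or lower difference at 48 h. Among all transcripts such a change was called for 40.0% in GB2, 17.6% in BIS3 and 15.5% in BIS14. Of 28 alternatives, 1 lost the call of ERG11 in BIS3, 5 that of ERG9 in BIS14 and 1 that of ERG7 in BIS14. In GB2 the log2 changes were -0.80 for ERG9, -0.88 for ERG1, -1.57 for ERG7 and -1.50 for ERG11. In BIS3 they were -0.79 for ERG1, -1.75 for ERG7 and -0.95 for ERG11. In BIS14 they were -0.52 for ERG9 and -0.93 for ERG7.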

How the results depend on the processing

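Of 92 log2 fold changes of the 4 genes over 23 comparisons, 47 were called and 29 of these kept their call and direction under every alternative run for them, including all 4 genes in GB2 against WT at 18 h, ERG1 and ERG7 in GB2 against WT at 48 h, and all 4 in GB2 between times. The other 18 lost the call somewhere, and 2 of them also turned in sign with library totals, an alternative added after seeing the data: in BIS3 at 48 h against 18 h, ERG9 had 0.031 and ERG11 0.022, with 2 of 4 genes called. Where no cause is named, it was not tested. ERG9 held 69 to 268 counts per library, and whether depth limited its calls was not tested.

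Counts of sterol genes called that moved by over 1.5 times are listed here, and smaller changes, each of 1 gene, are not. When a fit held the compared groups alone, 1 was called for BIS18 against WT at 18 h, 0 for each of the 3 strain steps at 18 h and for BIS3 against BIS14 and BIS14 against BIS18 at 48 h, and 1 for 48 h against 18 h in BIS14. With all 35 libraries in one fit, 2 were called for GB2 against BIS3 and for BIS3 against BIS14 at 18 h, and 0 for BIS14 against BIS18 at 48 h. With library totals, 0 were called for GB2 against BIS3 at 18 h and 2 for BIS18 against WT at 48 h. At 48 h 1 was called for GB2 against BIS3 and 0 for BIS14 against BIS18. In that order this setting called 2194 of all 7375 transcripts, then 2111, 2506 and 812 of 7913. For BIS18 against WT at 48 h 1623 of the 2111 were lower, and the median log2 fold change of all transcripts was -0.16. With WT replicate 2 put back, 1 was called for BIS3 against WT at 48 h, 0 for BIS3 against BIS14 and for BIS14 against BIS18 at 48 h, 1 for times in BIS18 and 1 for the change of the BIS14 difference. That setting called 19 of all 7917 transcripts for BIS3 against BIS14 and 17 for BIS14 against BIS18 at 48 h, against 581 and 775 of 7913 without that library. With WT replicates 1 to 3, 1 was called for BIS3 against WT at 48 h and 0 for the change of the BIS14 difference. DESeq2 called 0 for BIS3 against BIS14 at 48 h, and a minimum of 10 counts in every library called 2 for times in BIS3. Leaving out single libraries gave 0 to 3 for GB2 against BIS3, 0 to 2 for BIS3 against BIS14 and 1 to 2 for BIS14 against BIS18 at 18 h. At 48 h it gave 1 to 2 for BIS3 against WT and 0 to 1 for BIS3 against BIS14 and for BIS14 against BIS18. Between times it gave 2 to 4 in BIS3, 1 to 2 in BIS18 and 1 to 3 for the change of the BIS14 difference.

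Within a time, same-numbered replicates of different strains did not deviate together (r from -0.24 to 0.36 at 18 h and from -0.23 to 0.18 at 48 h). Pairs with other numbers ran from -0.36 to 0.30 at 18 h and from -0.29 to 0.27 at 48 h, so the numbers were not used as pairs. Pairing of the 18 h and 48 h libraries of the same strain and number was not examined. With a replicate block, 1 gene in place of 2 was called for BIS3 against WT at 48 h, 3 in place of 4 for BIS3 and 2 in place of 3 for BIS14 against WT at 18 h, and 2 in place of 3 for BIS14 against WT at 48 h. The block changed no other count, and ERG7 in GB2 against BIS3 at 18 h had 0.016.

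Among 45 values not called, 18 changed sign. With library totals these were ERG9 in BIS18 against WT at 18 h (0.0038), ERG9 in GB2 (-0.21) and BIS3 (-0.035) and ERG11 in BIS3 (-0.059) against WT at 48 h, ERG11 in BIS14 against BIS18 at 48 h (-0.021), between times ERG1 in BIS18 (0.030) and ERG9 (0.21) and ERG1 (0.12) in WT, and the ERG1 term of BIS18 (-0.086). With WT replicates 4 to 6 they were ERG11 in BIS18 at 18 h (-0.029), ERG9 in GB2 (-0.015) and ERG11 in BIS3 (-0.018) at 48 h, and ERG9 in WT between times (0.047). With WT replicate 2 put back, ERG11 at 48 h had 0.031 in GB2, 0.088 in BIS14 and 0.019 in BIS18, and with WT replicates 1 to 3 it had 0.0069 in BIS14. Between times, a minimum of 10 counts gave 0.099 for ERG1 in BIS18, 0.13 for ERG9 and 0.041 for ERG1 in WT, only the groups compared gave 0.0071 for ERG1 in BIS18 and 0.0097 for ERG9 in WT, and RLE and DESeq2 gave 0.020 and 0.020 for ERG1 in BIS18. With single libraries left out, sign changes fell within -0.066 to 0.011 (ERG9, BIS18, 18 h), -0.025 to 0.098 (ERG9, GB2, 48 h), -0.027 to 0.091 (ERG9, BIS3, 48 h), -0.020 to 0.080 (ERG11, BIS3, 48 h) and -0.17 to 0.0037 (ERG11, BIS14, 48 h) against WT. Steps had -0.19 to 0.42 (ERG7, GB2 against BIS3, 18 h), -0.072 to 0.051 (ERG9, GB2 against BIS3, 48 h), -0.31 to 0.0034 (ERG1, BIS3 against BIS14, 48 h) and -0.037 to 0.13 (ERG11, BIS14 against BIS18, 48 h). Times had -0.064 to 0.11 (ERG11, BIS14), -0.033 to 0.017 (ERG1, BIS18) and -0.047 to 0.031 (ERG9, WT), and the ERG1 term of BIS14 had -0.40 to 0.084.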
